A study of Saccharomyces cerevisiae with 6 samples.

Results

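Budding yeast converts glucose to ethanol, acetate and glycerol through a short set of abundant enzymes, and 30 of the 7126 features in the expression tables encode them. The genes were chosen by name: the 3 hexose kinases (HXK1, HXK2, GLK1), the enzymes from PGI1 to pyruvate kinase with their paralogues (PGI1, PFK1, PFK2, FBA1, TPI1, TDH1, TDH2, TDH3, PGK1, GPM1, GPM2, GPM3, ENO1, ENO2, CDC19, PYK2), the pyruvate decarboxylases (PDC1, PDC5, PDC6), the alcohol dehydrogenases ADH1, ADH3, ADH4 and ADH5, the mitochondrial aldehyde dehydrogenases ALD4 and ALD5, and the glycerol-phosphate dehydrogenases GPD1 and GPD2. All 30 had a usable value in each of the 6 libraries and passed the filter on low values.

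Polyadenylated RNA was sequenced from 3 strains of Saccharomyces cerevisiae grown in the rich glucose medium YPD, with 2 libraries per strain. D8A and D8B are thiol-peroxidase-null strains that carry the same genotype in the labels: S288c, MATa, his3, leu2, met15 and ura3, with tsa1, tsa2, dot5, ahp1, prx1, gpx1, gpx2, gpx3 and srx1 each replaced by a marker (KAN, LEU2, MET15, HIS3, URA3, HYG or NAT). The wild type (WT) is labelled Wt-M11 and monosome XI: S288c, MATa, with the mutations ade2-1, trp1-1, can1-100, ura3, leu2-3 and his3-11,15, and GAL, and with HIS3 and KanMX6 inserted between YKL006C-A and YKL006W on chromosome XI. The null and WT strains therefore differ in ade2, trp1, can1 and met15 and in the inserted markers as well as in the deletions, and these cannot be told apart from the loss of the peroxidases. The labels do not say that libraries of a strain came from separate cultures; each p-value rests on the spread among these libraries alone, and that spread may be technical.

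Depth, recovered from the deposited interval bounds, was 4.02 and 8.06 M fragments in D8A, 14.2 and 10.6 M in D8B, and 9.15 and 10.1 M in WT. The transcripts of the 8 deleted peroxidase genes were at 0 to 9.94 FPKM (fragment counts divided by feature length and library total) in the null libraries, against 27.3 to 2029 FPKM in WT. SRX1 went against its label, with 319, 415, 654 and 584 FPKM in the libraries labelled srx1-deleted, against 52.8 and 76.8 FPKM in WT. As the MATa labels state, the a-factor gene MFA1 was at 2771 to 4957 FPKM in the 6 libraries, while the alpha-cell receptor gene STE3 was at 8.13 to 19.0 FPKM. Both come from lists of 7 a-specific and 4 alpha-specific genes. None of these was called in the mean of the null strains by the limma test below, nor were any of 4 meiosis genes. Of 6 haploid-specific genes FUS3, HO and RME1 were called, 1 higher and 2 lower, beside 6.45% of all features. FPKM is a share of each library's own total, so a lower amount of one transcript per cell and a smaller fraction of cells expressing it cannot be told apart.

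In glycolysis, glucose is first phosphorylated by a hexose kinase and is later split into triose phosphates. TDH enzymes oxidise triose phosphate and give NADH, and the later steps end in pyruvate. Pyruvate decarboxylase and alcohol dehydrogenase then turn pyruvate into ethanol and restore NAD, while GPD enzymes divert triose phosphate to glycerol and aldehyde dehydrogenases make acetate. Most steps are covered by paralogues, 1 strongly expressed on glucose and the others under glucose repression, osmotic stress, oxygen limitation or the diauxic shift.

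No main enzyme of lower glycolysis or ethanol formation passed the test, and the genes called were minor or regulated paralogues. With limma on log2(FPKM + 1) over 6925 features and a Benjamini-Hochberg adjusted p under 0.05, 4 of the 30 genes were called in the mean of the null strains against WT: HXK1, GPD1 and GPM3 were higher and ADH5 was lower. That is 13.3% of the genes, where 6.45% of all features tested were called; 1.55% of all features were called higher and 4.91% lower. The median change of the 30 genes was -0.01 on the log2 scale, and that of all features was 0.01. In D8A against WT 4 genes were called (HXK1, GPD1, GPM2 higher and ADH5 lower), beside 5.05% of all features (1.23% higher and 3.83% lower). In D8B against WT 2 were called (GPM3 higher and ADH5 lower), or 6.67% of the genes beside 4.9% of all features (1.21% higher and 3.68% lower). D8A and D8B were compared with the same WT libraries, so their changes share that error.

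Without the test, 5 genes had all 4 null libraries above both WT libraries (HXK1, HXK2, GLK1, GPM3 and GPD1), a pattern shown by 15.2% of all features. Another 3 had all 4 null libraries below both WT libraries (ADH5, ALD5 and GPD2), as did 16.3% of all features. The other 22 genes overlapped between null and WT. Near their background as these counts are, they describe the genes and do not set them apart from the rest of the genome.

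**Figure D1:**
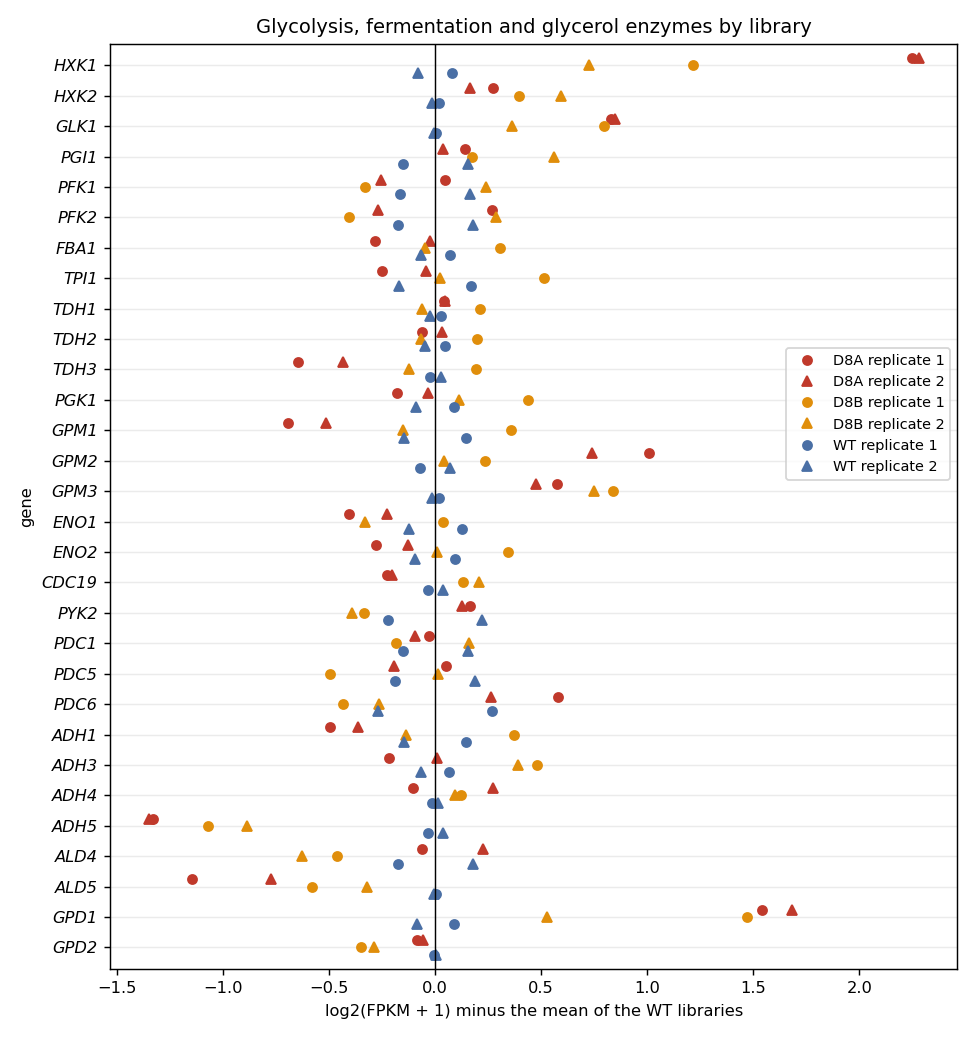
Expression of the 30 genes in each library, as log2(FPKM + 1) minus the mean of the 2 WT libraries (horizontal axis, log2 units), with D8A in red, D8B in orange and WT in blue, and circles and triangles for replicates 1 and 2. HXK1 and GPD1 lie to the right and ADH5 to the left in all 4 null libraries, while the 2 D8A libraries of HXK1 stand beyond both D8B libraries.

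Of the hexose kinases HXK1 rose, with the highest values in D8A. HXK1 (YFR053C, chrVI:253592-255049, R64) encodes a hexokinase that is repressed on glucose. It had 201 and 206 FPKM in D8A and 97.6 and 69.3 FPKM in D8B, against 43.9 and 39.2 FPKM in WT. The 3 strains did not overlap: D8A was highest, D8B intermediate and WT lowest. The means were 203 ± 3.32 FPKM in D8A, 83.4 ± 20.0 FPKM in D8B and 41.6 ± 3.31 FPKM in WT (SD, n = 2 each), a ratio of 4.89 for D8A over WT and of 2.01 for D8B over WT.

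HXK1 rose by 1.62 ± 0.20 on the log2 scale in the mean of the null strains (SE, limma adjusted p = 0.00322) and by 2.26 ± 0.23 in D8A (limma adjusted p = 0.00197). In D8B the change of 0.97 ± 0.23 did not pass the test (limma adjusted p = 0.0591), and the direct comparison of D8B with D8A gave -1.29 ± 0.23 (limma adjusted p = 0.077). The call for the null mean was lost without WT replicate 2 (limma adjusted p = 0.0718), where the single remaining WT library was assumed to vary like the others; the D8A call was kept without any 1 library. HXK1 overlaps 143 bp of YFR052C-A, a feature at 470 and 512 FPKM in D8A, 238 and 200 FPKM in D8B, and 123 and 113 FPKM in WT. No source used here says whether counting used the strand, and reads of such shared stretches cannot be told apart.

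GLK1 (YCL040W, chrIII:50838-52340), the glucokinase that is also repressed on glucose, had 195 and 197 FPKM in D8A and 190 and 141 FPKM in D8B, against 110 and 109 FPKM in WT. All null libraries lay above WT, but the difference of 0.71 ± 0.20 for the null mean did not pass the test (limma adjusted p = 0.0808). GLK1 overlaps 106 bp of YCL042W, and reads of that stretch cannot be told apart either. YCL042W had 87.0 and 99.5 FPKM in D8A and 93.3 and 75.2 FPKM in D8B, against 49.5 and 57.7 FPKM in WT. HXK2 (YGL253W, chrVII:23935-25395), the main hexokinase of glucose-grown cells and a regulator of glucose repression, had 696 and 646 FPKM in D8A and 758 and 870 FPKM in D8B, against 582 and 569 FPKM in WT. Its libraries did not overlap between null and WT either, with a difference of 0.36 ± 0.20 that did not pass (limma adjusted p = 0.354).

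Summed over the 3 kinases, FPKM was 1092 and 1049 in D8A and 1046 and 1080 in D8B, against 736 and 717 in WT. The sums of the null strains were close to each other while their make-up differed. HXK1 held 19.0% ± 0.852 of the sum in D8A, 7.87% ± 2.06 in D8B and 5.72% ± 0.352 in WT (SD, n = 2 each). HXK2 held 62.7% ± 1.53 in D8A, 76.5% ± 5.71 in D8B and 79.2% ± 0.175 in WT. The log2 ratio of HXK1 to HXK2 was -1.79 and -1.65 in D8A and -2.96 and -3.65 in D8B, against -3.73 and -3.86 in WT. D8A stood apart from WT by 2.07 on this scale, a ratio 4.20 times that of WT, whereas D8B replicate 2 lay next to the WT libraries. With 4 null against 2 WT libraries an exact two-sided permutation test cannot go below p = 0.133, the value found here, nor below 0.333 for 2 libraries against 2. No paralogue ratio could therefore pass a threshold of 0.05, and the smallest Benjamini-Hochberg adjusted value over the 16 ratios computed was 0.356.

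**Figure D2:**
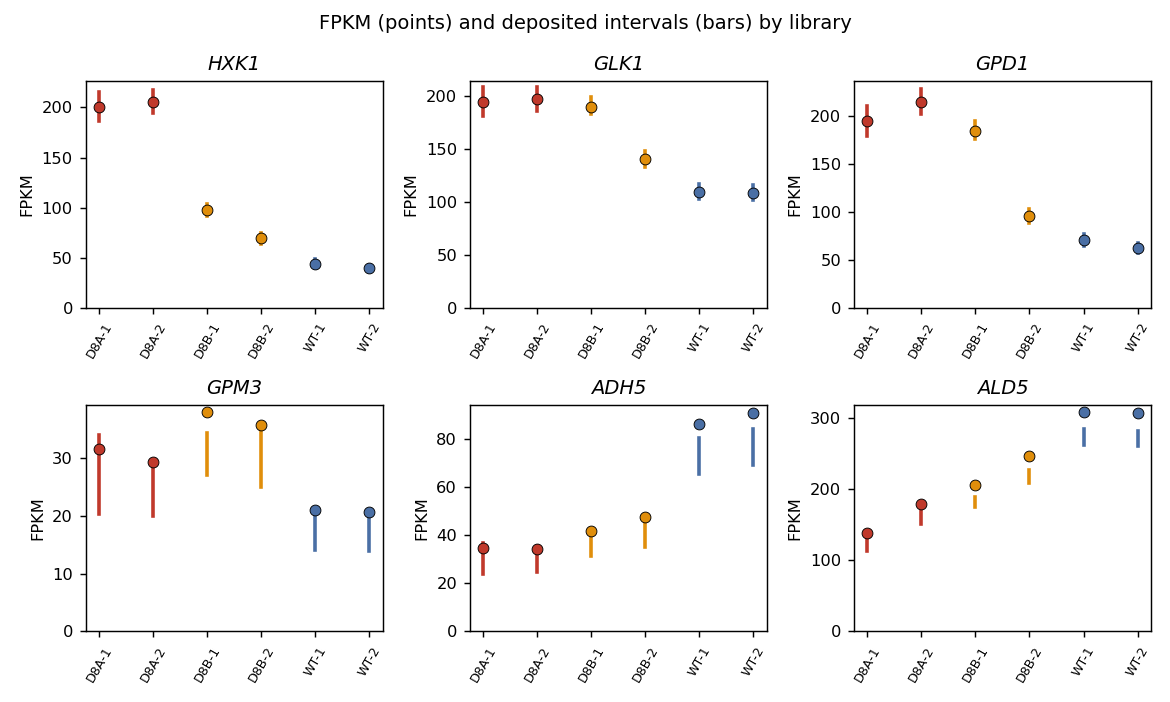
FPKM (vertical axis, linear, from 0) of 6 genes in each library, with D8A, D8B and WT from left to right. Points are the deposited FPKM and bars the deposited confidence interval, which covers counting error within a library; in GPM3, ADH5 and ALD5 the points lie near or above the top of their own interval. HXK1 steps down by strain, GPD1 and GLK1 have 1 lower D8B library, and ADH5 and ALD5 are highest in both WT libraries.

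The stretches upstream of the kinase genes differ in the letters of the stress response element, CCCCT, the sequence bound by the stress factors Msn2 and Msn4. In the 500 bases from -600 to -101 before the start codon, both strands searched, HXK1 had 5 matches, GLK1 had 3 and HXK2 had none. At least 1 match was present in 35.2% of the 5999 such windows of the genome, at least 3 in 1.92% and at least 5 in 18 windows. Of the 30 genes, 18 held a match, and those with at least 3 were HXK1, GLK1 and TDH3, the last of which is a main enzyme with no call in any comparison. The windows are shown because the HXK1 to HXK2 balance is the largest shift in the kinases. They are 300 bases each of the R64 reference (RefSeq), read 5′ to 3′ on the strand of the gene, with CCCCT or its reverse complement in capitals: HXK1 at chrVI:255350-255649 (minus strand, -600 to -301), GLK1 at chrIII:50438-50737 (plus strand, -400 to -101, overlapping the features YCL041C and YCL042W) and HXK2 at chrVII:23535-23834 (plus strand, -400 to -101).
HXK1: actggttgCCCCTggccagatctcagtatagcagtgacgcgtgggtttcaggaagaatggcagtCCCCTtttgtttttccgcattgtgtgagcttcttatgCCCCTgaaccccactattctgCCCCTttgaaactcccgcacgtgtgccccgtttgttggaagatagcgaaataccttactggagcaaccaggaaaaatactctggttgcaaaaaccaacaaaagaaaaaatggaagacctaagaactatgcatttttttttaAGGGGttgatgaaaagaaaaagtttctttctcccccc
GLK1: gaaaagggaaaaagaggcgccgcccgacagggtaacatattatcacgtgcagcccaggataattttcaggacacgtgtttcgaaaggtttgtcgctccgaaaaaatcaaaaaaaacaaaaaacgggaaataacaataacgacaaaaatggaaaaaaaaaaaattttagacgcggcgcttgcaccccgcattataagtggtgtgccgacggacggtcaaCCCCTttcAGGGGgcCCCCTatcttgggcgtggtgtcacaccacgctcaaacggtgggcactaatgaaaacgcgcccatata
HXK2: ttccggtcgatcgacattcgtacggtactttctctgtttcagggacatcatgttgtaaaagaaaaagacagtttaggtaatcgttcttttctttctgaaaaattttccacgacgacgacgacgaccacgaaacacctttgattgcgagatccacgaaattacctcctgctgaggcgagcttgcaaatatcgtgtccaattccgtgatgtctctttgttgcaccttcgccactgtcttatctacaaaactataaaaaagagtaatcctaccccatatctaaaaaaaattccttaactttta
The matches in GLK1 lie within a few bases of each other, and those in HXK1 are spread along the window. A match is a run of letters and not a measured binding site.

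HXK1 and HXK2 reads can be assigned with little ambiguity: their coding sequences are identical at 77.8% of aligned positions, and the longest run they share is the 23 bases ttggccattgatttgggtggtac. No 50-base word of one occurs in the other.

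Of the upper glycolytic enzymes after the kinases none was called. PGI1, the glucose-phosphate isomerase, had 850 and 790 FPKM in D8A and 868 and 1135 FPKM in D8B, against 692 and 857 FPKM in WT. PFK1 and PFK2, the subunits of phosphofructokinase, had 159 to 236 and 72.7 to 118 FPKM in null libraries, against 179 to 225 and 85.5 to 110 FPKM in WT. These 3 genes overlapped between null and WT, with differences of 0.23, -0.08 and -0.03 in the null mean (limma adjusted p = 0.609, 0.878 and 0.958). Shares of the subunits were close in the strains: PFK1 held 65.8% ± 2.68 of their sum in D8A, 67.6% ± 1.44 in D8B and 67.4% ± 0.287 in WT.

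The trunk of lower glycolysis was strongly expressed, to different degrees. By mean FPKM over the 6 libraries, among features of 300 bp or more, FBA1, the aldolase, ranked 1, TDH3 ranked 5, GPM1 ranked 6 and ENO2 ranked 10, while TPI1 ranked 67, PGK1 ranked 113 and CDC19 ranked 149. PGK1 shares 595 bp with YCR013C (4450 to 6957 FPKM), and CDC19 shares 963 bp with YAL037C-B (4572 to 5999 FPKM). These features stood above the genes they overlap. GPM1 shares 468 bp with YKL153W (426 to 861 FPKM). How reads of these stretches were assigned is not known, so the ranks of PGK1 and CDC19 are uncertain. FBA1 had 12053 and 14446 FPKM in D8A and 18137 and 14218 FPKM in D8B, against 15400 and 14003 FPKM in WT. TPI1, the triose-phosphate isomerase, had 2845 and 3293 FPKM in D8A and 4841 and 3440 FPKM in D8B, against 3817 and 3010 FPKM in WT. PGK1, the phosphoglycerate kinase, had 2007 and 2221 FPKM in D8A and 3073 and 2454 FPKM in D8B, against 2416 and 2134 FPKM in WT. All 3 overlapped between null and WT, with limma adjusted p of 0.855 to 0.980 for the null mean.

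GPM1, the phosphoglycerate mutase, had 7108 and 8050 FPKM in D8A and 14717 and 10342 FPKM in D8B, against 12713 and 10383 FPKM in WT. TDH3, the main glyceraldehyde-phosphate dehydrogenase, had 7615 and 8814 FPKM in D8A and 13625 and 10956 FPKM in D8B, against 11703 and 12141 FPKM in WT. ADH1, which makes ethanol in glucose-grown cells, had 4322 and 4734 FPKM in D8A and 7890 and 5540 FPKM in D8B, against 6734 and 5510 FPKM in WT. Both D8A libraries were below every D8B and WT library for each of these 3 abundant transcripts. The differences of D8A from WT were -0.60 ± 0.30 for GPM1, -0.54 ± 0.27 for TDH3 and -0.43 ± 0.29 for ADH1, and none passed (limma adjusted p = 0.333, 0.338 and 0.476). Among the alternatives they ran from -0.75 to -0.22 for GPM1, -0.65 to -0.08 for TDH3 and -0.57 to 0.09 for ADH1. GPM1 and FBA1 lie on chromosome XI, whose genes as a whole had a median log2 difference of 0.01 in D8A and 0.08 in D8B from WT.

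ENO2, the main enolase, had 7067 and 7861 FPKM in D8A and 10880 and 8626 FPKM in D8B, against 9162 and 8029 FPKM in WT. ENO1, its paralogue, had 1577 and 1785 FPKM in D8A and 2147 and 1659 FPKM in D8B, against 2278 and 1917 FPKM in WT. The ENO1 share of enolase was lower in every null library, at 18.4% ± 0.186 in D8A and 16.3% ± 0.246 in D8B, against 19.6% ± 0.451 in WT. The log2 ratio of ENO1 to ENO2 differed from WT by -0.22 for all null libraries (exact p = 0.133, the smallest possible). The paralogues share 23.6% of their 50-base words and a longest run of 112 bases, so reads could be split between them, and the ratio is uncertain.

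TDH2 had 2538 and 2709 FPKM in D8A and 3037 and 2534 FPKM in D8B, against 2742 and 2563 FPKM in WT. TDH1, the paralogue of starved and stationary cells, had 537 and 538 FPKM in D8A and 604 and 501 FPKM in D8B, against 531 and 513 FPKM in WT. Both overlapped between null and WT, and their shares were larger in D8A, where TDH3 values were lower: TDH2 held 23.1% ± 0.906 in D8A, 17.8% ± 0.369 in D8B and 17.6% ± 1.04 in WT. TDH2 and TDH3 are 95.8% identical and share runs of up to 173 bases, so this split is uncertain too. TDH1 shares 8.84% of its 50-base words with the far more abundant TDH3, so the TDH1 values are uncertain as well.

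GPM2 and GPM3 are homologues of GPM1 that are expressed at a small fraction of its level. GPM3 (YOL056W, chrXV:223268-224179) had 31.6 and 29.4 FPKM in D8A and 38.1 and 35.8 FPKM in D8B, against 21.1 and 20.7 FPKM in WT. All null libraries were above WT, and GPM3 rose by 0.66 ± 0.15 in the null mean (limma adjusted p = 0.0466) and by 0.79 ± 0.18 in D8B (limma adjusted p = 0.0474). Both calls lie at the threshold, and both were lost without the filter on low values and with the replicate block. The D8B call was also lost with a pseudocount of 0.1 and with quantile normalization. That of the null mean was lost without WT replicate 1, WT replicate 2, D8A replicate 1, D8B replicate 1 or D8B replicate 2 (limma adjusted p = 0.32, 0.413, 0.0587, 0.109 and 0.109). That of D8B was lost without WT replicate 1 or 2 or D8B replicate 1 or 2 (limma adjusted p = 0.278, 0.387, 0.181 and 0.187).

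GPM2 (YDL021W, chrIV:413953-414888) had 38.4 and 31.7 FPKM in D8A and 22.0 and 19.1 FPKM in D8B, against 17.6 and 19.6 FPKM in WT. The D8A libraries stood above the rest, and D8B overlapped WT. GPM2 rose by 0.87 ± 0.20 in D8A (limma adjusted p = 0.049), a call lost when any 1 library other than D8A replicate 2 was left out (limma adjusted p = 0.0763 to 0.322). It was lost in 11 of 17 alternatives in all, among them a pseudocount of 0.1, no filter, median centring, quantile normalization and removal of the length trend. The direct comparison of D8B with D8A gave -0.74 ± 0.20 and did not pass (limma adjusted p = 0.268). GPM2 and the glycerol gene GPD1 are neighbours on chromosome IV.

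The last step, pyruvate kinase, is made by CDC19 in growing cells and by PYK2, a glucose-repressed paralogue, at low level. CDC19 had 1402 and 1423 FPKM in D8A and 1798 and 1895 FPKM in D8B, against 1600 and 1680 FPKM in WT. PYK2 had 19.1 and 18.6 FPKM in D8A and 13.2 and 12.6 FPKM in D8B, against 14.4 and 19.9 FPKM in WT. CDC19 was lower in D8A and higher in D8B than in WT, and D8A and D8B were ordered the other way for PYK2. None of these differences passed (limma adjusted p = 0.674 for CDC19 and 0.538 for PYK2 in D8B against D8A). PYK2 made up 1.31% ± 0.038 of pyruvate kinase FPKM in D8A, 0.695% ± 0.047 in D8B and 1.03% ± 0.198 in WT, so CDC19 held nearly all of it in every library. The overlap of CDC19 with YAL037C-B leaves the size of the PYK2 share uncertain.

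**Figure D3:**
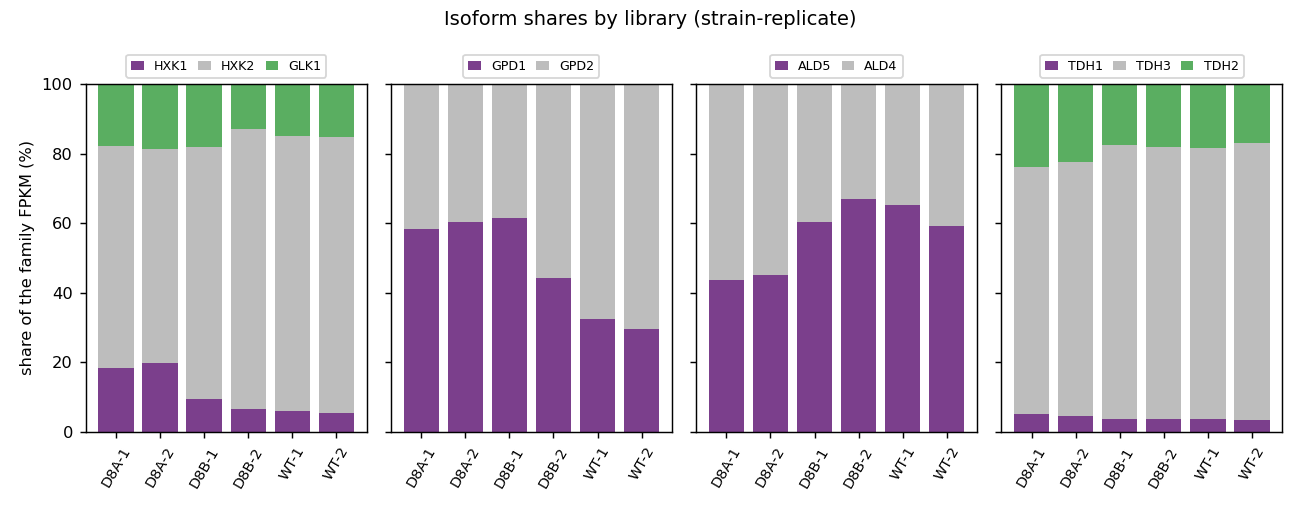
Share of each isoform in the summed FPKM of its family (vertical axis, percent) for hexose kinases, GPD, ALD4 with ALD5, and TDH, in each library from D8A through D8B to WT. The HXK1 share is 19.0% in D8A and 5.72% in WT on average, and the GPD1 share is at least 44.3% in the null libraries and at most 32.4% in the WT libraries.

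No pyruvate decarboxylase gene was called, and PDC1 made up nearly all of the family in every library. PDC1, the main isozyme, had 7047 and 6749 FPKM in D8A and 6335 and 8045 FPKM in D8B, against 6470 and 8008 FPKM in WT. PDC5, which is known to be induced when PDC1 or thiamine is lacking, had 36.4 and 30.5 FPKM in D8A and 24.6 and 35.4 FPKM in D8B, against 30.7 and 40.1 FPKM in WT. PDC1 and PDC5 are 87.2% identical, with a longest shared run of 65 bases and 0.974% of their 50-base words in common. Since PDC1 values are far higher, reads of shared stretches could make up part of the PDC5 values, which are uncertain. PDC6 was the weakest of the 30 genes, with 5.34 and 4.09 FPKM in D8A and 2.14 and 2.53 FPKM in D8B, against 4.11 and 2.52 FPKM in WT. Those PDC6 values rest on 32 to 56 fragments per library. PDC1 held 99.5% ± 0.056 of the sum in D8A, 99.6% ± 0.035 in D8B and 99.5% ± 0.004 in WT, and the limma adjusted p of the 3 genes was 0.719 to 0.958 for the null mean.

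Among the alcohol dehydrogenases the minor isozyme ADH5 fell. ADH5 (YBR145W, chrII:533762-534817) had 34.7 and 34.2 FPKM in D8A and 41.8 and 47.5 FPKM in D8B, against 86.6 and 91.0 FPKM in WT. All 4 null libraries lay far below both WT libraries, with means of 34.5 ± 0.343 in D8A, 44.7 ± 4.07 in D8B and 88.8 ± 3.16 in WT (SD, n = 2 each). ADH5 fell by 1.16 on the log2 scale in the null mean (SE 0.16, limma adjusted p = 0.00556), by 1.34 in D8A (SE 0.18, limma adjusted p = 0.00659) and by 0.98 in D8B (SE 0.18, limma adjusted p = 0.0265). It was the single gene of the 30 called in both strains. The D8B call was lost with the replicate block. Without WT replicate 1 or 2 the null-mean call was lost (limma adjusted p = 0.0654 and 0.118), as was that of D8A (0.0636 and 0.103); that of D8B was lost without WT replicate 1 or 2 or D8B replicate 1 or 2 (0.167, 0.273, 0.136 and 0.107).

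ADH3, the mitochondrial isozyme, had 361 and 422 FPKM in D8A and 587 and 551 FPKM in D8B, against 439 and 401 FPKM in WT. ADH4 had 31.6 and 41.2 FPKM in D8A and 37.0 and 36.3 FPKM in D8B, against 33.6 and 34.3 FPKM in WT. D8B was above WT for ADH3 without a call (limma adjusted p = 0.343), and ADH4 overlapped between null and WT. Relative to ADH1, ADH5 was lower by 1.02 on the log2 scale in the null libraries and ADH3 was higher by 0.32, each without overlap between null and WT (exact p = 0.133 each, the smallest possible). ADH1 shares 14.0% of its 50-base words with ADH2, the ethanol-oxidising paralogue, which had 231 and 256 FPKM in D8A and 449 and 323 FPKM in D8B, against 422 and 357 FPKM in WT.

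The mitochondrial aldehyde dehydrogenases followed different patterns. ALD5 (YER073W, chrV:304030-305592) had 138 and 179 FPKM in D8A and 205 and 246 FPKM in D8B, against 308 and 306 FPKM in WT. ALD4, the main mitochondrial isozyme, had 179 and 219 FPKM in D8A and 136 and 121 FPKM in D8B, against 165 and 211 FPKM in WT. ALD5 was below WT in all null libraries and lowest in D8A, whereas ALD4 was lower in D8B alone. Neither passed the test in any comparison: ALD5 differed by -0.96 ± 0.23 in D8A (limma adjusted p = 0.0647) and -0.45 ± 0.23 in D8B (limma adjusted p = 0.345), and ALD4 by -0.54 ± 0.23 in D8B (limma adjusted p = 0.261). ALD5 held 44.3% ± 1.06 of their sum in D8A, 63.7% ± 4.81 in D8B and 62.1% ± 4.18 in WT. The sums were 318 and 398 FPKM in D8A and 341 and 367 FPKM in D8B, against 474 and 518 FPKM in WT. All null sums lay below both WT sums.

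ADH5 and ALD5, the genes with all null libraries below WT in ethanol and acetate metabolism, each had 1 match to TGACTC, the core bound by the amino acid control factor Gcn4, at a similar distance from the start codon. The match was present upstream of 5 of the 30 genes (FBA1, TDH1, ADH3, ADH5 and ALD5), beside 13.5% of all 500-base windows of the genome. Of these 5 genes ADH5 alone was called, and the pair was picked after its values were seen. Shown are 300 bases of the R64 reference (RefSeq) from -400 to -101, on the plus strand, with TGACTC or its reverse complement in capitals: ADH5 at chrII:533362-533661, which overlaps the feature YBR144C, and ALD5 at chrV:303630-303929.
ADH5: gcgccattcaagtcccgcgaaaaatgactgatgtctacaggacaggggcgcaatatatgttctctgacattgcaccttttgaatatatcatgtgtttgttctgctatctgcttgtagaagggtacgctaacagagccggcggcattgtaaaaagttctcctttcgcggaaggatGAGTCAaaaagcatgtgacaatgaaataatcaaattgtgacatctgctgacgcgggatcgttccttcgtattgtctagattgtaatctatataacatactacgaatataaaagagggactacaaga
ALD5: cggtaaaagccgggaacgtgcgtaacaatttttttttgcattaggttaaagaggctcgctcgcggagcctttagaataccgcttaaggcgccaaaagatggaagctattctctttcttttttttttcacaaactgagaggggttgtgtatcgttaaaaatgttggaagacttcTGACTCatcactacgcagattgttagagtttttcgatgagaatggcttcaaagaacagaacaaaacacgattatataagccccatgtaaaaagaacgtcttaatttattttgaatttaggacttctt

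In glycerol synthesis GPD1 rose in the null mean and in D8A, and GPD2 did not pass the test. GPD1 (YDL022W, chrIV:411825-413000), the isozyme induced by osmotic stress, had 194 and 214 FPKM in D8A and 184 and 95.4 FPKM in D8B, against 70.1 and 62.0 FPKM in WT. All null libraries were above WT, and D8B replicate 2 lay well below D8B replicate 1. Means were 204 ± 14.4 FPKM in D8A, 140 ± 62.8 FPKM in D8B and 66.1 ± 5.75 FPKM in WT (SD, n = 2 each). GPD1 rose by 1.31 ± 0.27 in the null mean (limma adjusted p = 0.0304) and by 1.61 ± 0.31 in D8A (limma adjusted p = 0.0299), and the difference of 1.00 ± 0.31 in D8B did not pass (limma adjusted p = 0.133). The null-mean and D8A calls were both lost without the filter on low values and with the replicate block. The null-mean call was lost without WT replicate 1, WT replicate 2, D8A replicate 1 or D8A replicate 2 (limma adjusted p = 0.145, 0.295, 0.06 and 0.055), and that of D8A likewise (0.119, 0.227, 0.106 and 0.0784). In D8B the difference was 1.47 without replicate 2 and 0.53 without replicate 1, so the size depends on which D8B library is kept. GPD1 overlaps 257 bp of YDL023C, a feature at 64.7 and 118 FPKM in D8A, 74.7 and 51.3 FPKM in D8B, and 29.4 and 25.7 FPKM in WT.

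GPD2 (YOL059W, chrXV:217126-218448), the isozyme that restores NAD when oxygen is short, had 139 and 141 FPKM in D8A and 115 and 120 FPKM in D8B, against 147 and 148 FPKM in WT. Its null libraries all lay below WT, narrowly in D8A, and the difference of -0.20 ± 0.17 did not pass (limma adjusted p = 0.557). GPD1 held 59.3% ± 1.38 of the GPD sum in D8A, 52.9% ± 12.2 in D8B and 31.0% ± 1.96 in WT. GPD1 exceeded GPD2 in 3 of the 4 null libraries, and GPD2 exceeded GPD1 in the remaining D8B library and in both WT libraries. The log2 ratio of GPD1 to GPD2 differed from WT by 1.70 in D8A and 1.33 in D8B (exact p = 0.133 over all libraries, the smallest possible), the widest shift among the 16 ratios for the null mean, at 1.52.

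The GPD1 window held 2 matches to CCCCT, and at least that many were present in 8.50% of all windows. The second overlaps a match to CTTCC, the core bound by the glycolytic activator Gcr1. CTTCC was present upstream of 23 of the 30 genes, beside 66.8% of all windows. TTACTAA, bound by the oxidative stress factor Yap1, was present upstream of TDH1 and ALD4, or 2 of the 30 genes, beside 11.0% of all windows. The GPD1 sequence at chrIV:411425-411724 (plus strand, -400 to -101, R64 reference, RefSeq) is shown as the counterpart of HXK1, with CCCCT in capitals.
GPD1: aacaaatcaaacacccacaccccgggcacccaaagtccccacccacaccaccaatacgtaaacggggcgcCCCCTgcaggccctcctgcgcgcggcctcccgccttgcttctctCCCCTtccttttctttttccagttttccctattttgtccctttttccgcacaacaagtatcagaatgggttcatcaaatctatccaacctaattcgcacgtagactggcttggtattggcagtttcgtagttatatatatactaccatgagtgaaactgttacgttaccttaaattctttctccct

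**Figure D4:**
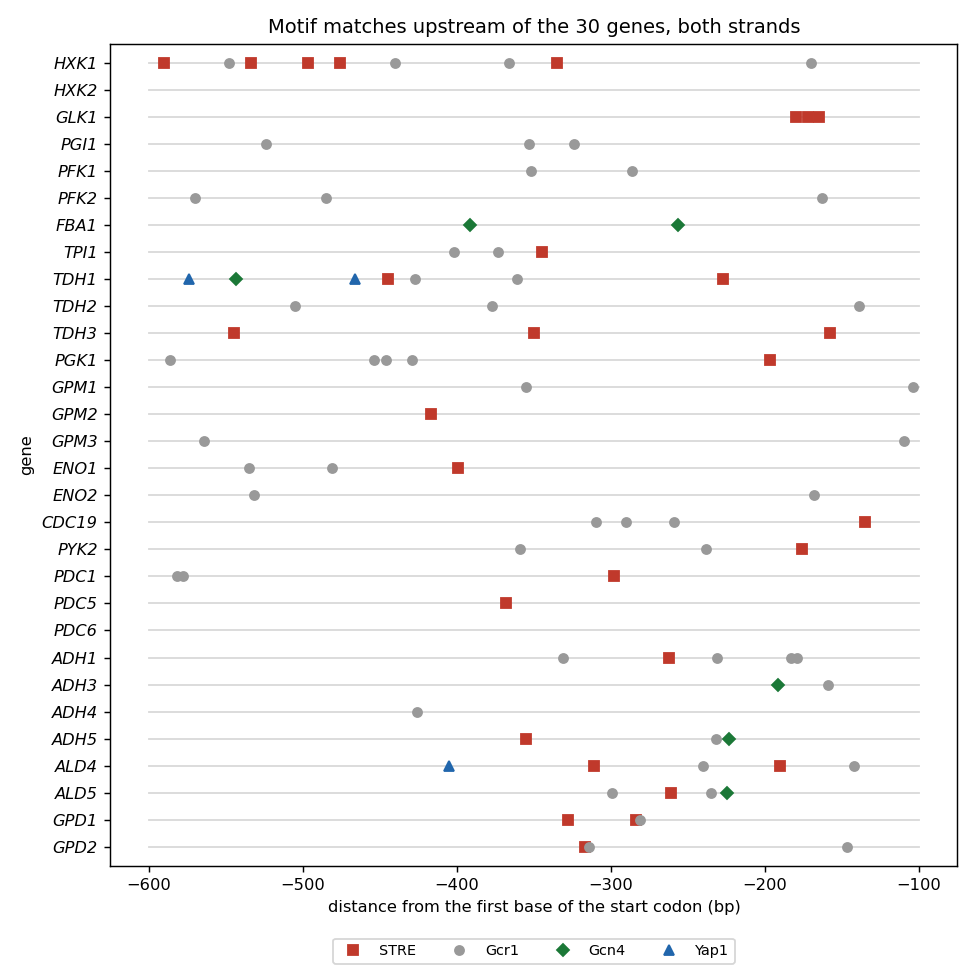
Matches to 4 motifs upstream of each of the 30 genes, by distance from the first base of the start codon (horizontal axis, bp), searched on both strands from -600 to -101. HXK1 carries 5 stress response elements (red squares), more than any other of the genes, while HXK2 and PDC6 have no match of any kind.

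Other genes of the same pathways were counted by lists, and each count of the null mean stands beside 1.55% of all features called higher and 4.91% called lower. Of 13 further genes of fermentation and acetate handling, 1 rose and 1 fell. ALD6, the main cytosolic aldehyde dehydrogenase, had 1830 and 2185 FPKM in D8A and 1642 and 1356 FPKM in D8B, against 577 and 466 FPKM in WT, a rise of 1.73 ± 0.23 (limma adjusted p = 0.00418). All null libraries lay far above WT, and the call was lost only without WT replicate 2 (limma adjusted p = 0.104) among the alternatives. Among the acetaldehyde dehydrogenases, ALD6 was thus higher in the null strains while ALD5 values were lower. ALD2, a stress-inducible cytosolic isozyme, fell by 0.87 (SE 0.18, limma adjusted p = 0.0328). That call was lost without the filter on low values, and also without WT replicate 1 or 2, D8A replicate 1, or D8B replicate 1 or 2.

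Of 19 regulators of glycolysis and glucose repression none rose and 2 fell, beside 4.91% of all features called lower, and with so few genes this count says nothing particular of the regulators. FBP26, the phosphatase that removes an activator of phosphofructokinase, fell by 1.14 (SE 0.17, limma adjusted p = 0.00808), with 23.5 and 23.3 FPKM in D8A and 17.8 and 16.4 FPKM in D8B, against 39.6 and 51.3 FPKM in WT. PFK26, the kinase that makes the same activator, fell by 0.96 (SE 0.21, limma adjusted p = 0.0385), with 22.0 and 22.0 FPKM in D8A and 14.4 and 19.4 FPKM in D8B, against 31.5 and 46.5 FPKM in WT. The making and the removing enzyme were both lower. The FBP26 call was lost without WT replicate 2. That of PFK26 was lost without the filter on low values, and also without any 1 library other than D8B replicate 2.

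Of 15 genes of gluconeogenesis and pyruvate use none rose and 2 fell in the null mean, again beside 4.91% of all features called lower. PYC2, a pyruvate carboxylase, fell by 1.27 (SE 0.19, limma adjusted p = 0.00808), with 63.5 and 66.6 FPKM in D8A and 69.6 and 80.4 FPKM in D8B, against 147 and 195 FPKM in WT. ERT1, a regulator of nonfermentable carbon use, fell by 1.19 (SE 0.21, limma adjusted p = 0.0164). PYC2 was lost without WT replicate 2 (limma adjusted p = 0.166) and ERT1 without WT replicate 1 or 2, with limma adjusted p up to 0.204. Of 16 thiamine genes, which supply the cofactor of pyruvate decarboxylase, THI7, a thiamine transporter, rose by 0.93 (SE 0.17, limma adjusted p = 0.0204) and THI20, an enzyme of thiamine synthesis, fell by 0.75 (SE 0.18, limma adjusted p = 0.0475). THI7 was lost without WT replicate 1 or 2 or D8B replicate 2 (limma adjusted p up to 0.223) and THI20 without any 1 library other than D8A replicate 2 (up to 0.495). Of 11 further glycerol genes 0 were called by limma, beside 6.45% of all features, and 3 had an unadjusted p under 0.05, beside 21.1% of all features.

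D8A and D8B differed in none of the 30 genes at the threshold, beside 0.332% of all features called (0.217% higher and 0.116% lower). Of the 30 genes, 6 had an unadjusted limma p under 0.05, a larger share than the 9.18% of all features, and none passed after adjustment. The nearest to a call was HXK1, followed by GPM2. Other tools were not run on these FPKM values.

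Libraries of the same strain differed by feature length. Over 6177 features of 300 bp or more, Spearman's rho between length and replicate 2 minus replicate 1 on the log2 scale was -0.45 in D8A, 0.53 in D8B and 0.43 in WT; over the 30 genes it was -0.41, 0.66 and 0.50. The points share their libraries, so these are descriptions. In D8B the median difference between replicates was -0.31 for the 17 genes under 1400 bp and 0.20 for the 13 longer ones, in WT -0.13 and 0.31, and in D8A 0.15 and -0.06. Short abundant transcripts such as TPI1 and GPM1 were higher in replicate 1 of D8B and of WT, and this spread is part of the errors above. The differences from WT sloped with length too. In D8A the median was -0.14 for features of 600 to 999 bp and 0.23 for those of 2300 to 3499 bp. In D8B these medians were -0.005 and 0.19. With each library's length trend removed, the changes in the null mean were 1.61 for HXK1, 1.33 for GPD1, 0.72 for GPM3 and -1.12 for ADH5, with all 4 called, and GLK1 (0.70, limma adjusted p = 0.0433) and ALD5 (-0.72, limma adjusted p = 0.0124) were called as well. That setting was added after seeing the data and called 17.7% of all features. The part of length in the differences was otherwise not tested.

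Some genes that missed the threshold passed it when the 6177 features of 300 bp or more were fitted alone, a set without the short features. In that fit 6 of the 30 genes were called in the null mean, GLK1 (limma adjusted p = 0.0098) and ALD5 (0.0126) joining the 4, beside 15.3% of the features. In D8B 4 were called beside 13.2%, HXK1 (0.0012) and GPD1 (0.00115) joining GPM3 and ADH5. HXK1 was also the gene of the 30 called between D8B and D8A (limma adjusted p = 2.16e-05), beside 3.19% of the features. The share of all features called was larger there as well, and the cause was not tested.

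**Figure D5:**
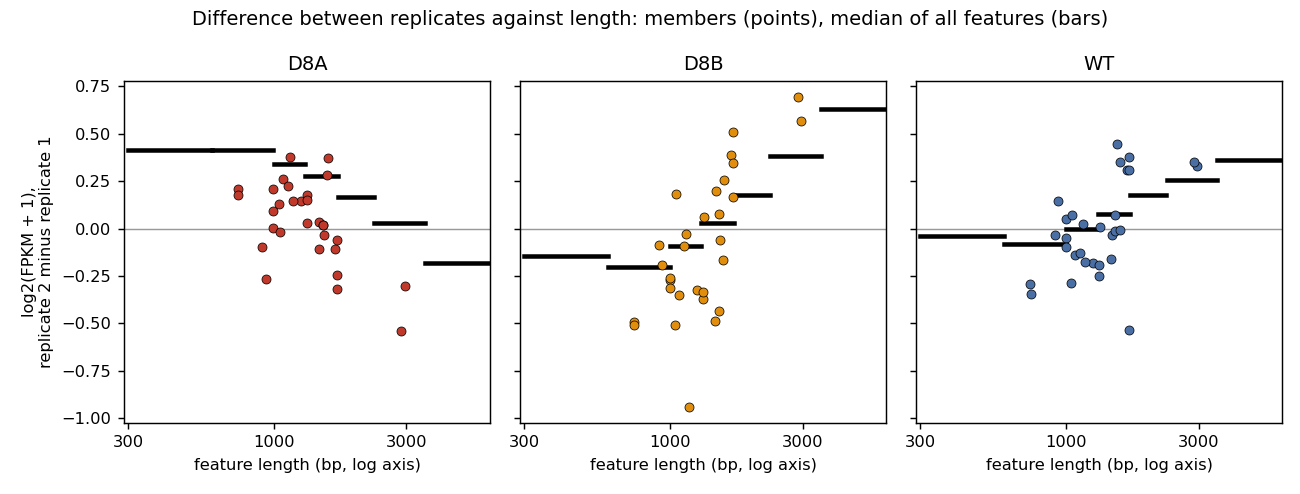
Replicate 2 minus replicate 1 of log2(FPKM + 1) (vertical axis) against feature length (bp, log axis) in D8A, D8B and WT. Points are the 30 genes and black bars the medians of all features in a length range; the bars slope down in D8A and up in D8B and WT, and GPD1 in D8B, at -0.94, stands below the trend.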

How the data were processed

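The authors deposited 1 table of FPKM with confidence bounds for each library, per the file headers. The submitters' processing notes list Bowtie2 2.1.0, TopHat2 2.0.9, Cufflinks 2.1.1 and R64, with no role or order. Of 7126 features 7051 had the status OK in every library, and 6925 of these had a mean FPKM of at least 1 and were tested. One linear model with a mean per strain was fitted in limma 3.58.1 (R 4.3.3) to log2(FPKM + 1) of the 6 libraries, with variances moderated along a trend (3 residual and 4.71 prior degrees of freedom), two-sided, with Benjamini-Hochberg adjustment over all features. This scale understates the fold change of a weakly expressed gene. The fit was tested on simulated data. Paralogue ratios were tested by exact permutation over libraries with SciPy 1.17.1 in Python 3.11.15.

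Depth was recovered from the upper bound of features listed at 0, taken as 2 fragments. FPKM then gave whole fragments, within 0.02, for 91.8% to 93.5% of features checked in a library. This shows depth only, and no count model was used. Deposited FPKM divided by the midpoint of its interval was between 0.98 and 1.00 for the 6 genes that overlap another feature, and up to 1.37 for others such as TPI1. Levels of different genes are therefore comparable to about that factor at best. This ratio does not measure reads shared with an overlapping feature, so the levels of PGK1 and CDC19 may be further off.

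Upstream windows and coding sequences came from the R64 RefSeq reference, where all 30 genes had the same coordinates as in the tables. Motifs and windows were searched in 5999 genes. All 30 genes are named, and further genes only where called, up to 4 per list. The genes, lists and tests were chosen with earlier results of these data known. A protein table was not used here.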

Additional observations from a re-analysis of the deposited data

Results flagged for a closer look

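For 6 genes the D8A libraries lay on one side of the WT mean and the D8B libraries on the other. The share of all features with this pattern was not computed, so the count does not set these genes apart. The difference of D8B minus D8A on the log2 scale was 0.41 for TPI1 (limma adjusted p = 0.698), 0.38 for PGK1 (limma adjusted p = 0.692), 0.38 for ENO2 (limma adjusted p = 0.698) and 0.39 for CDC19 (limma adjusted p = 0.674). These abundant enzymes of lower glycolysis had lower values in D8A than in D8B. The weakly expressed paralogues PYK2 (-0.51, limma adjusted p = 0.538) and PDC6 (-0.77, limma adjusted p = 0.572) had higher values in D8A than in D8B. None of the 6 differences passed the test, and none of these genes was called in D8A or in D8B against WT. The D8A difference from WT changed sign among the alternatives for TPI1 (-0.32 to 0.20), PGK1 (-0.19 to 0.17) and ENO2 (-0.30 to 0.18). It did so for CDC19 (-0.25 to 0.09) and PYK2 (-0.08 to 0.37) as well. The difference of D8B minus D8A kept its sign for the 6 genes but fell to 0.02 for TPI1. The opposite sides of WT therefore depend on the processing for TPI1, PGK1, ENO2, CDC19 and PYK2. PDC6 kept its sides among the alternatives, at 0.15 to 0.71 in D8A and -0.62 to -0.08 in D8B against WT. Its values rest on 32 to 56 fragments per library. D8A replicate 1 is the shallowest library, with 4.02 M fragments; the part of depth in these differences was not tested.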

How the results depend on the processing

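No called difference changed direction under the alternatives, while differences of genes without a call, and of some paralogue ratios, crossed 0. The log2 ratio of PDC6 to PDC1 was -10.6 and -11.6 in the WT libraries and -11.1 in the mean of the null libraries. That of PYK2 to CDC19 was -6.80 and -6.40 in WT and -6.70 in the null mean. The sign of both differences depends on the WT library kept. The number of the 30 genes called in the null mean against WT was 4, and it was 2 without the filter on low values, 2 with the replicate block and 0 to 4 when 1 library was left out (0 without WT replicate 2); it was 5 with median centring or quantile normalization, and 6 over features of 300 bp or more, with robust moderation, with the length trend removed or with interval midpoints. In D8A against WT it was 4, and it was 2 without the filter, 2 with the replicate block, 3 with a pseudocount of 0.1 and 1 to 4 without 1 library; it was 5 with quantile normalization or the length trend removed, and 6 over features of 300 bp or more, with robust moderation or with interval midpoints. In D8B against WT it was 2, and it was 1 with a pseudocount of 0.1, without the filter or with quantile normalization, 3 with the length trend removed, 4 over features of 300 bp or more, with robust moderation or with interval midpoints, 0 with the replicate block and 0 to 2 without 1 library. In D8B against D8A it was 0, and it was 1 (HXK1) over features of 300 bp or more, with robust moderation or with interval midpoints. The share of all features called moved as well. For the null mean it was 3.83% without the filter, 4.49% with the replicate block, 8.69% with median centring and 9.89% with quantile normalization. It was 15.3% over features of 300 bp or more, 10.7% with robust moderation, 17.7% with the length trend removed and 9.69% with interval midpoints. Over these settings it was 2.61% to 13% in D8A, 2.48% to 15% in D8B and 0.13% to 3.19% in D8B against D8A. With a pseudocount of 0.1 it was 5.81% for the null mean, 4.23% in D8A and 4.39% in D8B. Without either WT library the share of all features called against WT was also smaller than with all 6 libraries. The same held in D8B without either D8B library. Lower counts in those fits therefore do not set the 30 genes apart. The log2 ratio of PDC5 to PDC1 differed from WT by -0.36 after quantile normalization, and by -0.12 as deposited. Same-numbered libraries were not shown to be pairs: their deviations correlated at -0.15 (D8A with WT), 0.33 (D8B with WT) and -0.25 (D8A with D8B) over 6925 features. Where 1 WT library was left, it was assumed to vary like the other strains. Removing the length trend and using interval midpoints were chosen after seeing the data.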
